A study of Mus musculus with 8 samples.

Results

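Prm1, Prm2 and Prm3 (protamines) and Tnp1 and Tnp2 (transition proteins) were described across WT and Cnot4-null mouse spermatocytes. They were taken by symbol, 1 value each in 8 gene expression tables, and all 5 passed the filter on low values (FPKM, a fragment count scaled to transcript length and to mapped fragments, above 1 in at least 1 library) that left 15899 genes for testing. The study asked what loss of CNOT4, a subunit of the CCR4-NOT deadenylase, does to the transcriptome at successive stages of meiosis. Male C57BL/6 spermatocytes labelled LZ (leptotene and zygotene) or PD (pachytene and diplotene) were profiled in duplicate, which gave 4 groups of 2 libraries: WT LZ, Cnot4-null LZ, WT PD and Cnot4-null PD. Per the methods, cells came from mice 6 weeks of age and were sorted by Hoechst and propidium iodide fluorescence. Per the results of the study, the conditional Cnot4 fl/fl;Stra8-Cre line lost exon 2 in male germ cells. Somatic cells of these testes are not a target of this Cre. The labels give the genotype as Cnot4-KO, with no age and no allele. The methods call the duplicates biological, without saying how many animals stand behind each library.

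In elongating spermatids, histones are first replaced by transition proteins and then by protamines, small basic proteins that compact the sperm nucleus. Their genes are transcribed in round spermatids, after meiosis, and the mRNAs are stored and translated later. Spermatocytes, the cells sampled here, precede that step.

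Of the members, 4 lie side by side on chromosome 16 of the mm9 build, all on the minus strand. Tnp2 spans chr16:10788029-10788748, Prm3 chr16:10790600-10791006, Prm2 chr16:10791476-10792198 and Prm1 chr16:10796419-10796979, a cluster of 8951 bases. Gaps of 1851, 469 and 4220 bases separate them in that order. Tnp1 lies apart at chr1:73061657-73062473, also on the minus strand. None of the 5 overlapped another annotated gene, and all have 2 exons except Prm3, a single-exon gene for an acidic cytoplasmic protein. Their transcripts are short, at 469 (Prm1), 618 (Prm2), 407 (Prm3), 418 (Tnp1) and 549 (Tnp2) nucleotides, against a median of 2314 over 22613 coding genes. FPKM is corrected for length, so levels are compared between genes below.

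Because the 5 genes moved together between genotypes at PD, stretches near their start sites are shown, from RefSeq promoter windows that each matched mm9 once. Capitals mark TGANNTCA in Prm1, Prm3 and Tnp1, and TTTATA, which is TATAAA on the other strand, in Prm2. No motif searched was found in Tnp2. The Prm1 stretch lies at chr16:10796970-10797036, Prm2 at chr16:10792199-10792318, Prm3 at chr16:10791008-10791127, Tnp1 at chr1:73062474-73062593 and Tnp2 at chr16:10788749-10788868, each written along the minus strand.
Prm1: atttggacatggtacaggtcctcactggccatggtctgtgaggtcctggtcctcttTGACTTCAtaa
Prm2: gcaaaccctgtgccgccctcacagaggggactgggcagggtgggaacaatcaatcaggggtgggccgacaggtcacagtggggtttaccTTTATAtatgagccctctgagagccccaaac
Prm3: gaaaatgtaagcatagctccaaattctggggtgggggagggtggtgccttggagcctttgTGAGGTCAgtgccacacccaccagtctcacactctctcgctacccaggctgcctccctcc
Tnp1: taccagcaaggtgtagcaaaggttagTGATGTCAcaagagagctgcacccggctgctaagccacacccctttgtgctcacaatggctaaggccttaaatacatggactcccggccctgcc
Tnp2: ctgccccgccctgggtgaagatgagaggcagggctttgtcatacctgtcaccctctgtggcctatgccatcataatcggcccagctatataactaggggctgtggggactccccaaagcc
The Prm1 stretch ends at -54 from the RefSeq start, and 7 of the 8 bases of its capitals lie within the Prm1 transcript as GENCODE annotates it. Motifs were searched on both strands of each whole window, which reaches beyond the stretch shown. TGACGTCA, the cyclic AMP response element to which CREM binds, was in 0 of 5 members and 1.79% of all 32851 windows. Its shorter form TGACG was in 0 of 5 and 20.8%. TGANNTCA, chosen after the sequences were seen and overlapping the full element, was in 14.1% of windows. TATAAA was in 13.6% and CCAAT, held by Prm3, in 37.4%.

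Before the members, Cnot4 itself was read. Its FPKM was 36.0 and 34.9 (WT LZ), 43.2 and 34.6 (Cnot4-null LZ), 76.6 and 73.1 (WT PD) and 65.9 and 53.5 (Cnot4-null PD). The Cnot4-null PD libraries were the lower at PD, but the difference was not called (log2 fold change -0.33, SE 0.20, adjusted p = 0.19 by limma), nor was it with quantile normalization (-0.21, adjusted p = 0.306), after rescaling to the sum without the 100 highest genes (-0.14, adjusted p = 0.450) or with any library left out (-0.48 to -0.18). Of these alternatives only rescaling to the same median gave a call (-1.25, adjusted p = 0.00156). A value per gene cannot show the loss of 1 exon, so it does not test the genotype.

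Libraries also differed in what else they held. The PD label was checked on the pachytene spermatocyte list of 14 genes. The lactate dehydrogenase gene Ldhc led the list in every library but Cnot4-null LZ replicate 2, where Hspa2 did. The list's summed FPKM was 13890.2 and 12987 (WT PD), 6647 and 2509 (Cnot4-null PD) and between 134 and 405 in the LZ libraries. Both Cnot4-null PD libraries held high levels of Leydig cell genes, which belong to steroid-producing cells outside the tubule. In Cnot4-null LZ the duplicates stood apart for the members, by 8.29 times for Prm1 and 8.89 times for Tnp1 and for Tnp2. The gap was smaller for Prm2 (2.98 times) and Prm3 (3.48 times). The expression tables hold no counts. The step between low values gave relative depths of 0.824 to 1.33 times that of WT LZ replicate 1, which do not follow the read totals in the study's supplement (not used here), so the depth of each library is left uncertain.

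**Figure D1:**
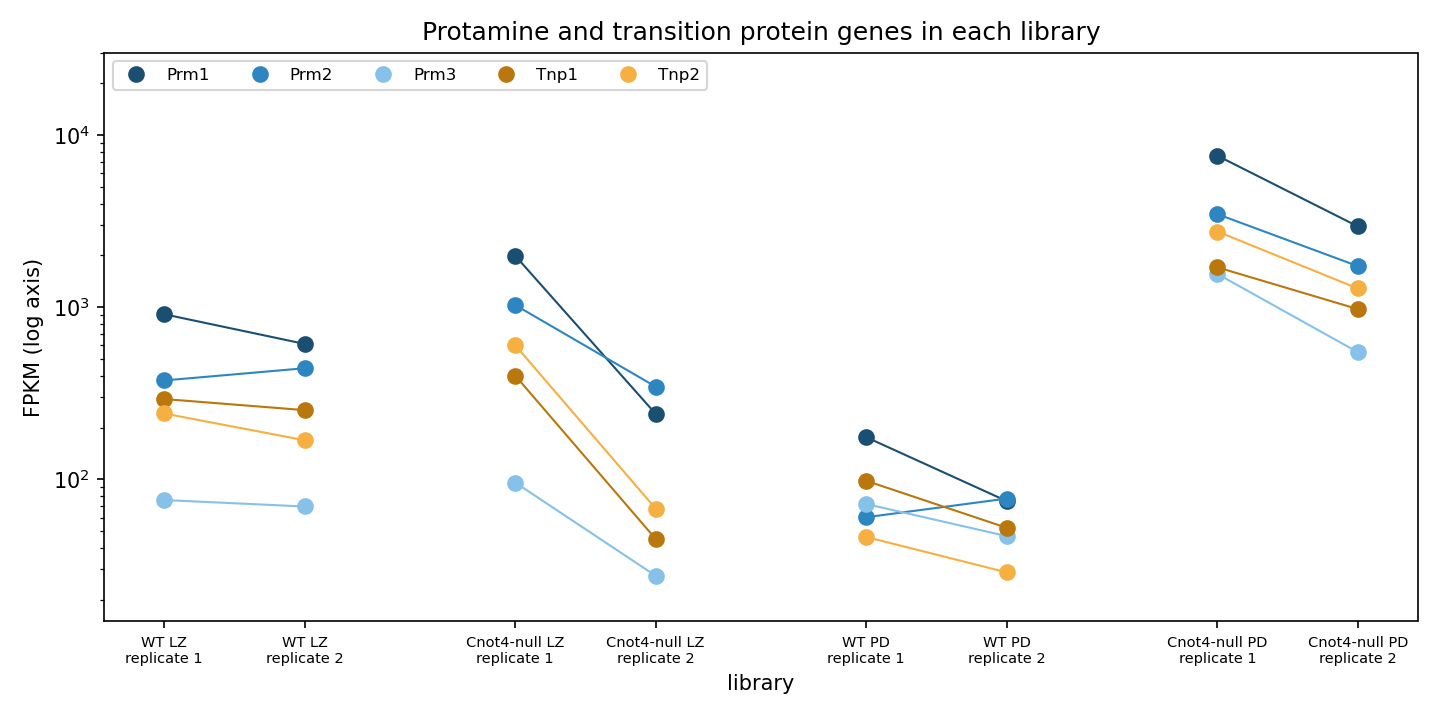
FPKM (log axis) of Prm1, Prm2, Prm3, Tnp1 and Tnp2 in each of the 8 libraries, 1 point per gene and library, with a line joining the duplicates of a group. Both Cnot4-null PD libraries lie above the 6 others for every gene, and the Cnot4-null LZ duplicates are the widest apart.

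Prm1 encodes the protamine that all mammals use. Its FPKM was 911 and 612 (WT LZ), 1991 and 240.2 (Cnot4-null LZ), 176 and 74.8 (WT PD) and 7592 and 2949 (Cnot4-null PD). WT PD was lowest, Cnot4-null PD highest, and neither overlapped another group.

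Prm2, the second protamine and one made as a precursor, was at 376 and 442 (WT LZ), 1029.5 and 346 (Cnot4-null LZ), 60.3 and 77.3 (WT PD) and 3475 and 1733 (Cnot4-null PD). The order of groups matched Prm1, with the WT LZ pair inside the range of the Cnot4-null LZ pair. Prm3 was at 75.8 and 69.6 (WT LZ), 95.9 and 27.5 (Cnot4-null LZ), 71.9 and 46.8 (WT PD) and 1561 and 548 (Cnot4-null PD). For Prm3 the first 3 groups overlapped and Cnot4-null PD stood apart.

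Tnp1, the more conserved transition protein, was at 293 and 253 (WT LZ), 401 and 45.1 (Cnot4-null LZ), 98.1 and 52.3 (WT PD) and 1706 and 976 (Cnot4-null PD). Cnot4-null LZ replicate 2 fell below both WT PD libraries for Tnp1. Tnp2, its zinc-binding partner, was at 241 and 169 (WT LZ), 601 and 67.6 (Cnot4-null LZ), 46.3 and 28.8 (WT PD) and 2755 and 1286 (Cnot4-null PD). WT PD was again lowest and Cnot4-null PD highest, without overlap with the rest.

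WT PD is the background against which Cnot4-null PD is read, and the members were present there. They summed to 452 and 280.04 FPKM, or 0.0531% and 0.0330% of the summed FPKM of a library. Ranked by FPKM among all symbols, Prm1 stood at 892 and 1700, and Tnp2, the lowest member, 2413 and 3215. In WT LZ the sum was 1896 and 1545 FPKM (0.249% and 0.220%), in Cnot4-null LZ 4119 and 726 (0.502% and 0.104%) and in Cnot4-null PD 17087 and 7492 (1.91% and 1.11%). Without the 100 highest other symbols the shares were 0.376% and 0.315% (WT LZ), 0.741% and 0.153% (Cnot4-null LZ), 0.0716% and 0.0451% (WT PD) and 2.64% and 1.58% (Cnot4-null PD). In Cnot4-null PD, Prm1 ranked 3 and 13, and Prm3, the lowest member, 79 and 192.

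At PD, all 5 members were higher in Cnot4-null than in WT. By limma, 5 of 5 were called higher, against 41.6% of all genes tested called higher and 11.5% lower. Both Cnot4-null PD libraries exceeded both WT PD libraries for 5 of 5, against 58.2% of genes, and all 6 other libraries for 5 of 5, against 19.4%. The ratio of mean FPKM was 42.1 for Prm1, 37.8 for Prm2, 17.8 for Prm3, 17.8 for Tnp1 and 53.8 for Tnp2. Single pairs of libraries spanned 16.8 to 102 for Prm1 and 7.63 to 33.4 for Prm3.

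On the scale of log2(FPKM + 1), which understates the change of low genes, the protamines rose by 5.35 (Prm1, SE 0.96, adjusted p = 0.00388), 5.15 (Prm2, SE 0.53, adjusted p = 0.000427) and 3.97 (Prm3, SE 0.65, adjusted p = 0.00264). Among the transition proteins Tnp1 rose by 4.15 (SE 0.90, adjusted p = 0.00803) and Tnp2 by 5.65 (SE 0.92, adjusted p = 0.00251). The members' median was 5.15 against 0.66 over all genes, a difference of 4.48. Tnp1 was not called without WT PD replicate 2 (3.70, adjusted p = 0.0642) or without Cnot4-null PD replicate 1 (3.75, adjusted p = 0.0641). The other 4 kept their calls with any library left out.

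The all-gene shift depended on scaling, from 0.66 as deposited to -0.10 with quantile normalization and 0.10 with medians made equal. Relative to it the members' median was 4.48, 5.59 and 4.12. Genes called higher made up 78.3% of all calls at PD as deposited, 41.01% with quantile normalization and 47.7% with equal medians. All 5 members were called higher under each. With 2 libraries against 2, an exact permutation test cannot go below p = 0.333, so the calls rest on limma's shared estimate of spread.

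At LZ no member was called between genotypes, and limma called 15 genes in all, or 0.0943% (1013 at an unadjusted p under 0.05). Differences were -0.11 for Prm1, 0.55 for Prm2, -0.49 for Prm3, -1.004 for Tnp1 and 0.0030 for Tnp2, with adjusted p from 0.975 to 1.00 (limma). For every member the WT LZ pair lay between the Cnot4-null LZ libraries. Without Cnot4-null LZ replicate 2 the values became 1.41 (Prm1), 0.40 (Prm3) and 0.56 (Tnp1), the opposite direction, as did Prm1 without WT LZ replicate 1 (0.18). Without Cnot4-null LZ replicate 1 Prm2 became -0.24 and Tnp2 -1.56, and Tnp2 was -0.25 without WT LZ replicate 2. A p that misses the limit does not show equal levels.

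**Figure D2:**
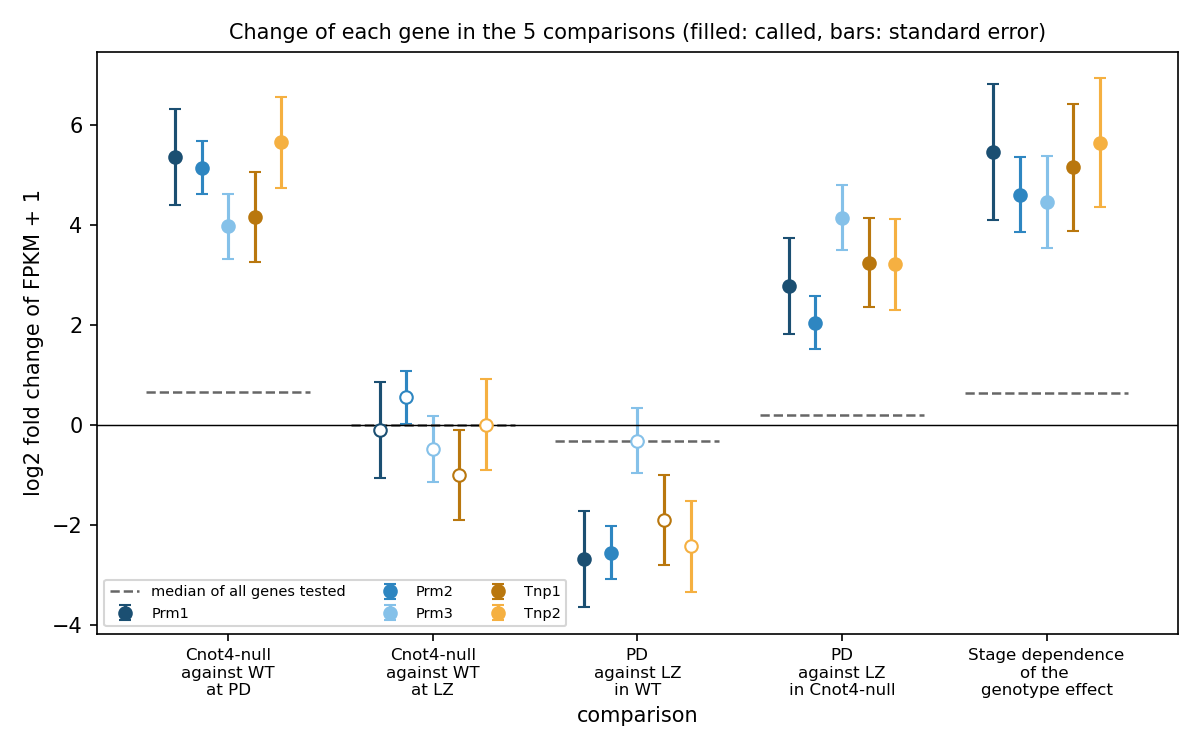
Log2 fold change of FPKM + 1 for each gene in 5 comparisons, with bars for the standard error, filled points for calls by limma and a dashed line for the median of all genes tested. The members lie at 3.97 to 5.65 at PD and at -1.004 to 0.55 at LZ.

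From LZ to PD, 2 members were called lower in WT and all 5 higher in Cnot4-null. The stage comparisons share their PD libraries with the genotype comparison at PD, so they are not independent of it. In WT, Prm1 fell by 2.69 (SE 0.96, adjusted p = 0.0452) and Prm2 by 2.56 (SE 0.53, adjusted p = 0.00452), 2 of 5 called lower, against 36.2% of genes called lower and 21.6% higher. Tnp2 (-2.43, adjusted p = 0.0540), Tnp1 (-1.91, adjusted p = 0.109) and Prm3 (-0.32, adjusted p = 0.730) were not called. Both WT LZ libraries exceeded both WT PD libraries for 4 members, all but Prm3, against 50.2% of genes.

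The Prm1 call in WT did not survive leaving out either WT LZ library (adjusted p = 0.197 without replicate 1 and 0.116 without replicate 2), either WT PD library (0.0756 and 0.229) or either Cnot4-null PD library (0.0954 and 0.0948). Without either Cnot4-null LZ library, whose spread enters the fit, 4 were called lower, with Tnp1 at adjusted p = 0.0106 and 0.0109. With all libraries in the fit, the Prm1 call in WT was lost with no filter (adjusted p = 0.0784 by limma). It was also lost after rescaling to the same median (-1.99, adjusted p = 0.104) and at a limit of 0.01. With the replicate block, Tnp1 (adjusted p = 0.0423) and Tnp2 (adjusted p = 0.0143) were called lower as well. Genes called higher were 37.4% of the WT stage calls as deposited and 51.2% after rescaling to the same median.

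In Cnot4-null, by limma, 5 of 5 were called higher at PD than at LZ, against 27.8% of genes called higher and 18.2% lower. Prm3 rose most, by 4.14 (SE 0.65, adjusted p = 0.00252), then Tnp1 by 3.25 (SE 0.90, adjusted p = 0.0223), Tnp2 by 3.21 (SE 0.92, adjusted p = 0.0250), Prm1 by 2.77 (SE 0.96, adjusted p = 0.0498) and Prm2 by 2.04 (SE 0.53, adjusted p = 0.0178). Only Prm3 was called without Cnot4-null LZ replicate 2 (3.26, adjusted p = 0.0195, the others 0.0547 to 0.253) or without Cnot4-null PD replicate 1 (3.38, adjusted p = 0.0238, the others 0.123 to 0.263). Prm2 and Prm3 alone were called without WT LZ replicate 1, WT LZ replicate 2 or Cnot4-null PD replicate 2, where the adjusted p was 0.0504, 0.0501 and 0.0779 for Tnp1, 0.0536, 0.0534 and 0.0715 for Tnp2 and 0.0907, 0.0905 and 0.0938 for Prm1. Prm1 was not called without WT PD replicate 1 (0.0769) or WT PD replicate 2 (0.0771). Without Cnot4-null LZ replicate 2 the members' median fell from 3.21 to 1.64 and Prm1 to 1.25. The Prm1 call was also lost with no filter, with a pseudocount of 0.1 or 2, with equal medians and without the variance trend. With only the libraries compared, and at a limit of 0.01, every member but Prm3 lost its call. The share of calls that were higher was 60.5% as deposited, 37.4% with quantile normalization and 49.6% with equal medians.

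Whether the genotype effect differed between stages was tested as an interaction. All 5 members were called higher by limma, against 26.0% of genes, at 5.46 for Prm1 (SE 1.36, adjusted p = 0.0244), 4.60 for Prm2 (SE 0.75, adjusted p = 0.00583), 4.46 for Prm3 (SE 0.92, adjusted p = 0.0131), 5.16 for Tnp1 (SE 1.27, adjusted p = 0.0233) and 5.65 for Tnp2 (SE 1.29, adjusted p = 0.0185). Prm2 kept its call with any library left out. Prm1 lost it without any library but Cnot4-null LZ replicate 1 (adjusted p from 0.0530 to 0.105), while Prm3 lost it without WT LZ replicate 1 (0.0584) and WT PD replicate 2 (0.0685). Tnp1 and Tnp2 lost theirs without any WT LZ, WT PD or Cnot4-null PD library, with adjusted p of 0.0683 to 0.101 and 0.0532 to 0.0851. Calls that were higher fell from 86.8% to 44.1% by quantile normalization and likewise with equal medians.

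Levels per length ordered the members alike in both Cnot4-null PD libraries: Prm1, Prm2, Tnp2, Tnp1 and Prm3. In WT LZ both libraries gave Prm1, Prm2, Tnp1, Tnp2 and Prm3. In WT PD and in Cnot4-null LZ the replicates disagreed, Prm1 leading in replicate 1 and Prm2 in replicate 2 of each. The ratio of Tnp2 to Tnp1 was 0.824 and 0.669 (WT LZ), 0.472 and 0.551 (WT PD), 1.5004 and 1.5003 (Cnot4-null LZ) and 1.62 and 1.32 (Cnot4-null PD). That ratio was below 1 in every WT library and above 1 in every Cnot4-null library. It was not tested.

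Other spermatid genes moved the same way at PD. Of 15 late spermatid genes tested, 14 were called higher in Cnot4-null and 0 lower, against 41.6% and 11.5% of all genes. Their median was 3.65, against 0.66 over all genes. Smcp, of the mitochondrial capsule, was at 47.5 and 58.2 FPKM (WT PD) and 771 and 921 (Cnot4-null PD). Odf1, of the outer dense fibres, was at 7.82 and 12.9 against 184 and 364, and Tssk6, a kinase needed for nuclear condensation, at 0.58 and 0.21 against 35.8 and 63.7. The exception was Odf2 (460 and 380.2 against 629 and 228, not called).

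The sum of the late spermatid list was 264 and 359 FPKM (WT LZ), 527 and 218 (Cnot4-null LZ), 627 and 567 (WT PD) and 3327 and 2535 (Cnot4-null PD). The ratio of the members' sum to that of this list was 7.18 and 4.31, 7.81 and 3.33, 0.721 and 0.494, and 5.14 and 2.96 in the same order. Odf2 made up most of the list's sum in WT PD. Among 14 round spermatid genes, 10 were called higher and 1 lower (41.6% and 11.5% of all genes), with a median of 2.67. Acrv1, of the acrosome, was at 16.5 and 15.01 FPKM (WT PD) and 139 and 101 (Cnot4-null PD). Dpy19l2, which anchors the acrosome, was the gene called lower (144 and 156 against 49.9 and 31.2). The round spermatid list summed to 596 and 589 (WT PD), 1239.8 and 615 (Cnot4-null PD) and 32.9 to 121 in the LZ libraries. From LZ to PD in WT, late spermatid genes were called higher for 1 and lower for 1 of 15, against 21.6% and 36.2% of all genes. In Cnot4-null, 15 of 15 were called higher (median 2.79), against 27.8% of all genes.

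Of 15 spermatid histone variants and chromatin exchange factors, 7 were called higher and 2 lower in Cnot4-null at PD (41.6% and 11.5% of all genes), with a median of 0.56, below that of all genes by 0.10. The higher ones included the linker histones H1fnt (3.56, adjusted p = 0.00177) and Hils1 (3.19, adjusted p = 0.0272) and the H2A variant H2afb1 (4.65, adjusted p = 0.00146). Chd5, also called higher, passed the filter only through Cnot4-null PD. Brdt, a bromodomain reader of acetylated histones (-1.21, adjusted p = 0.0167), and Psme4, a proteasome activator (-1.22, adjusted p = 0.0300), fell. The median of this list turned to -0.45 by quantile normalization and -0.15 with equal medians, and was 0.18 without Cnot4-null PD replicate 1 and 0.94 without replicate 2.

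The list of regulators of protamine mRNA held 18 genes, of which 4 were called higher and 7 lower (41.6% and 11.5% of all genes). Their median was -0.78 (-1.71 after rescaling to the same median, -0.33 without Cnot4-null PD replicate 2). Genes for storage of these mRNAs included Ybx2 (495 and 484 FPKM against 489 and 371, WT PD first, not called) and Csda (1343 and 1301 against 868 and 479, adjusted p = 0.0302). Tbpl1, a TBP-like factor needed in spermatids, fell from 334 and 335 to 127 and 58.0 (adjusted p = 0.00367), and Ddx25, a helicase needed for spermatid mRNA export, from 707 and 639.6 to 399.6 and 125 (adjusted p = 0.0320). Crem, named after its values were seen because it activates these genes, was at 158 and 157 (WT PD) and 98.7 and 62.8 (Cnot4-null PD; adjusted p = 0.0183). Hmgb4 rose from 47.5 and 33.0 to 1071 and 355 (adjusted p = 0.0115). Taf7l, a TFIID subunit, was at 383 and 430.4 (WT LZ), 4.88 and 4.34 (WT PD) and 95.2 and 109.8 (Cnot4-null PD; adjusted p = 9.49e-05).

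Pachytene genes did not follow the members, and leptotene and zygotene genes went both ways. Of 14 pachytene genes, 0 were called higher and 7 lower in Cnot4-null PD, against 41.6% and 11.5% of all genes. Their median was -1.43, and rescaling to the same median called all 14 lower. Ldhc was at 10594.5 and 9725 FPKM (WT PD) and 4585 and 1474 (Cnot4-null PD; adjusted p = 0.0568). Of 15 leptotene and zygotene genes, 5 were called higher and 5 lower, again against 41.6% and 11.5% of all genes. Their median of 0.29 lay below that of all genes by 0.37. It turned to -0.36 under quantile normalization and -0.63 after rescaling, and was 0.092 without Cnot4-null PD replicate 1. Stra8, which commits germ cells to meiosis, was at 8.70 and 6.47 (WT PD) and 228 and 149 (Cnot4-null PD; adjusted p = 0.000175), and Sycp3, of the chromosome axis, at 785 and 799 against 473 and 259.6 (adjusted p = 0.0409).

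**Figure D3:**
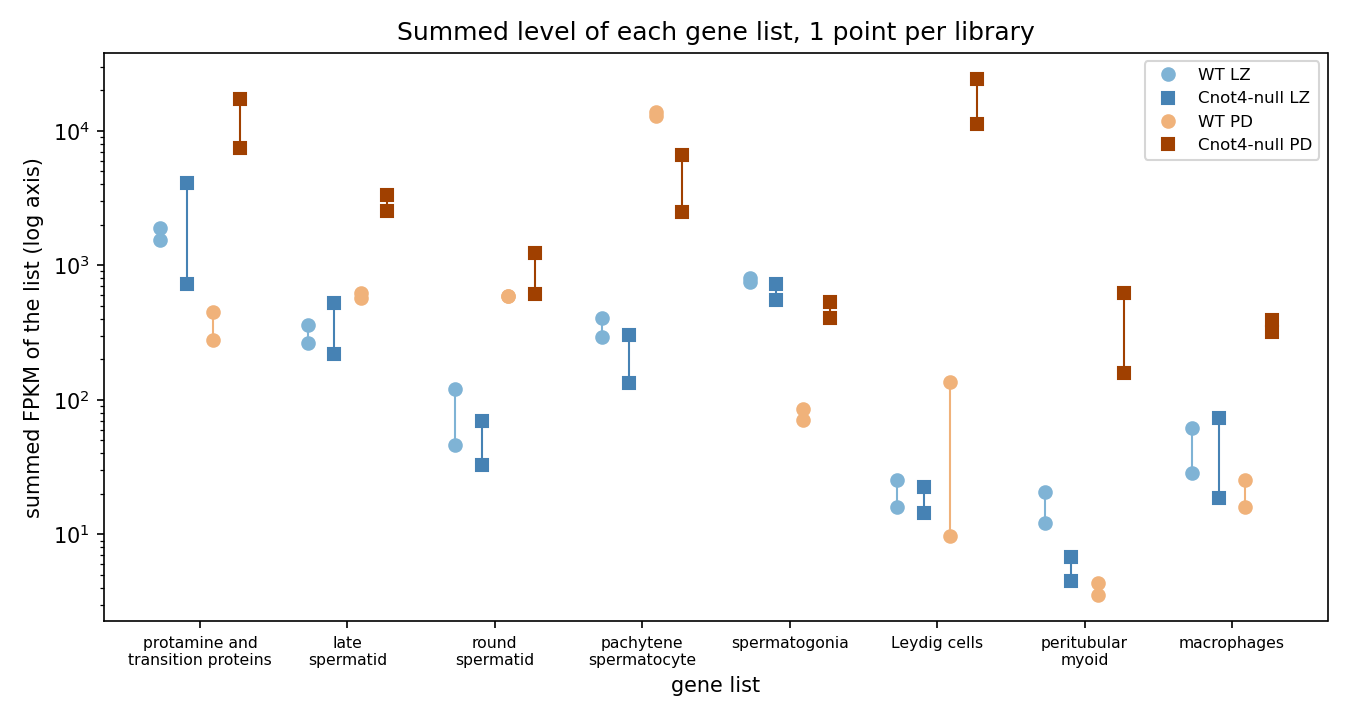
Summed FPKM (log axis) of 8 gene lists, 1 point per library, with a line joining the duplicates of each of the 4 groups. The members, the late and round spermatid genes, the spermatogonia and the somatic lists lie higher in each Cnot4-null PD library than in either WT PD library. For the round spermatid genes the margin is narrow in Cnot4-null PD replicate 2 (615 against 596 and 589).

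Markers of other cell types were also higher in Cnot4-null PD, and their part in the result was not tested. The counts below stand beside 41.6% of all genes called higher at PD, with a median of 0.66 over all genes. All 10 Leydig cell genes were called higher, with a median of 5.48. Their sum was 25.4 and 15.96 FPKM (WT LZ), 14.4 and 22.4 (Cnot4-null LZ), 135 and 9.76 (WT PD) and 11302.5 and 24339 (Cnot4-null PD), with Insl3 the most abundant in every library and none of the 10 at 0 in either Cnot4-null PD library. Lhcgr and Hsd17b3 were listed at 0 in all 4 LZ libraries. Hsd3b1, Hsd3b6, Lhcgr, Hsd17b3 and Akr1b7 passed the filter only through Cnot4-null PD. They entered the test because that group was high, which favours a call of higher. In bulk RNA, fewer cells of a type and less RNA per cell cannot be told apart, nor can more cells and more RNA.

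All 7 peritubular myoid genes were called higher (median 3.23). Their sum was 12.1 and 20.5 (WT LZ), 6.81 and 4.50 (Cnot4-null LZ), 4.33 and 3.52 (WT PD) and 159 and 622 (Cnot4-null PD), led there by Myl9. Myh11, Des and Cnn1 of this list passed the filter only through Cnot4-null PD. The same holds for Csf1r and Emr1 of the macrophage list and Gata4 of the Sertoli list. Of 9 macrophage genes, 5 were called higher (median 3.21), against 41.6% of all genes. Their sums were 61.2, 28.4, 73.3, 18.5, 25.3, 16.1, 396 and 320.4 in the same library order, with Aif1 the most abundant throughout. Aif1 alone was at 352 and 128 in Cnot4-null PD, most of the sum in replicate 1. Of 10 Sertoli cell genes tested, 7 were called higher (median 1.94, 0.77 with quantile normalization), and the list summed to 188 and 176 (WT LZ), 23.5 and 25.1 (Cnot4-null LZ), 21.1 and 61.9 (WT PD) and 144 and 266 (Cnot4-null PD), led by Clu in the last. Fshr was at 0 outside Cnot4-null LZ replicate 1 (0.15) and Amh outside Cnot4-null PD replicate 2 (0.13), and neither passed the filter. Of 3 endothelial genes tested 2 were called higher (median 1.76, 0.84 with quantile normalization), with sums of 20.7, 25.7, 24.4, 21.1, 0.42, 0.25, 10.1 and 19.0, led by Egfl7 outside WT PD. Cdh5, whose value is that median of 1.76, and Tek passed the filter only through Cnot4-null PD. The count and median of this list therefore say little about endothelial cells. All 4 globin genes were listed at 0 in every library, and no red blood cell gene passed the filter.

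Spermatogonial genes, 11 of 12, were called higher at PD (median 3.15). Their sum was 803 and 750.3 (WT LZ), 551 and 725 (Cnot4-null LZ), 71.1 and 85.8 (WT PD) and 408 and 529.6 (Cnot4-null PD), with Uchl1 the most abundant outside WT PD, where it was Id4. At LZ no gene of any list was called between genotypes.

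Some of these lists differed between the duplicates of Cnot4-null PD in the direction opposite to the members, and fewer did in Cnot4-null LZ. Each such lean is a difference between 2 libraries and was not tested. Over all 15899 genes tested, 8383 were higher in replicate 1 and 7355 in replicate 2 of Cnot4-null PD, with a median difference of 0.06. In Cnot4-null LZ the numbers were 9506 and 5426, with a median of 0.097. All 5 members were higher in replicate 1 than in replicate 2 of Cnot4-null PD, by a median of 1.10 on the log2 scale, and of Cnot4-null LZ, by 3.05. The late spermatid list leaned the same way, by 0.79 (12 of 15 genes, all but Smcp, Odf1 and Tssk6) and 1.13 (14 of 15). So did, in Cnot4-null PD, the round spermatid (0.84, 14 of 14), regulator (0.69, 17 of 18), histone variant (0.76, 12 of 15) and leptotene and zygotene (0.58, 13 of 15) lists. In Cnot4-null PD the Leydig list leaned to replicate 2 (-0.73, higher there for 8 of 10 genes), as did the myoid (-1.81, 7 of 7), macrophage (-1.55, 8 of 9) and Sertoli (-0.72, 7 of 10) lists. In Cnot4-null LZ the macrophage list leaned to replicate 1 with the members (0.84, 8 of 9), the myoid list by 0.28 (4 of 7) and the Leydig list to neither, while the Sertoli list leaned to replicate 2 (-0.22). Spermatogonia leaned to replicate 2 in both Cnot4-null groups (-0.38 at PD and -0.39 at LZ). The pachytene list leaned to replicate 1 in Cnot4-null PD (1.11, 14 of 14). Aif1, on the macrophage list, had the members' direction, at 352 and 128 FPKM.

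**Figure D4:**
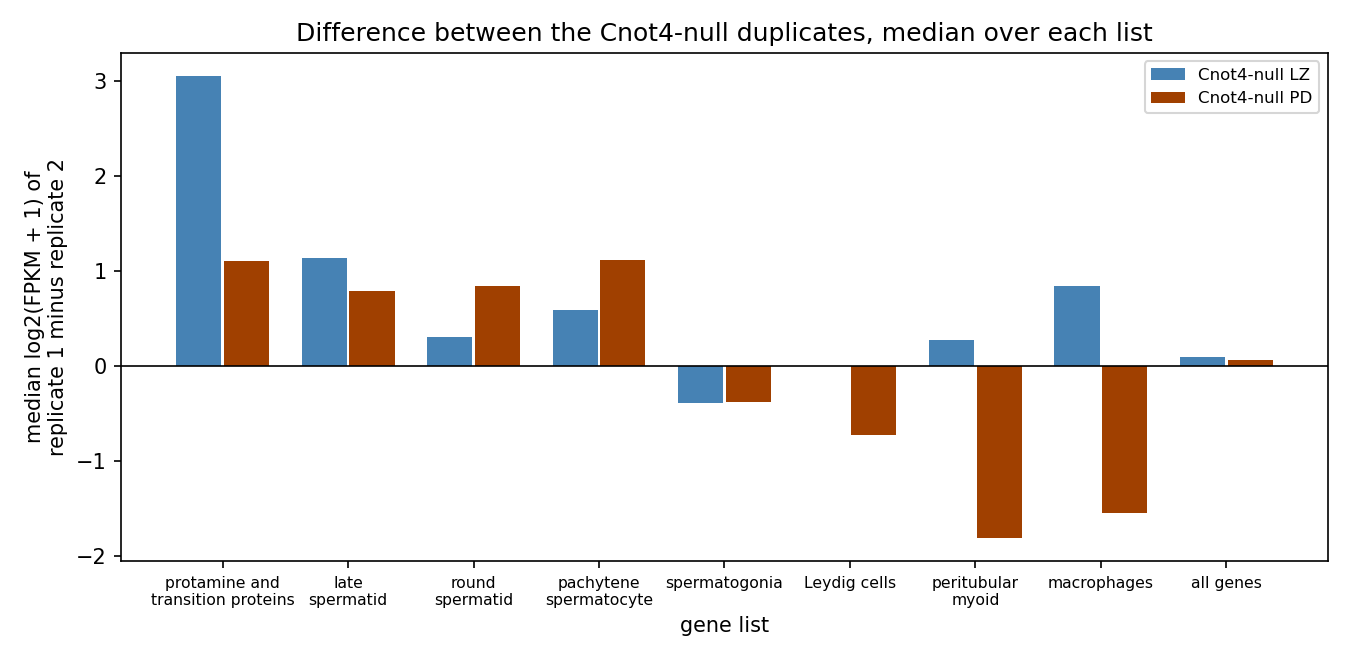
Median over each list of log2(FPKM + 1) in replicate 1 minus replicate 2, as bars for Cnot4-null LZ and Cnot4-null PD, 2 libraries each. The members are higher in replicate 1 in both groups, and the Leydig, myoid and macrophage lists are higher in replicate 2 of Cnot4-null PD.

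Genes near the members varied in their change. Of 9 neighbours tested on chromosome 16, 5 were called higher and 0 lower in Cnot4-null at PD, with a median of 0.95 (0.038 after rescaling to the same median). On chromosome 1, 3 of 5 were called higher, with a median of 0.78 (-0.059 after rescaling). Over all genes, 41.6% were called higher and 11.5% lower. The neighbour medians lay above that of all genes by 0.29 (chromosome 16) and 0.12 (chromosome 1). Igfbp2, near Tnp1, was at 76.6 and 61.7 FPKM (WT LZ), 0.68 and 0.31 (WT PD) and 19.9 and 50.8 (Cnot4-null PD), a rise at PD of 4.47 (adjusted p = 0.000298) against 4.15 for Tnp1. Tns1 rose by 3.16 (adjusted p = 0.00115), from 0.21 and 0.17 to 5.98 and 15.2, and passed the filter only through Cnot4-null PD. On chromosome 16 Litaf rose by 3.21 (adjusted p = 0.000573) and Snn by 2.76 (adjusted p = 0.000410), as did Socs1, next to Tnp2 and chosen after its values were seen, by 2.42 (adjusted p = 0.00172). All of these were higher in replicate 2 of Cnot4-null PD, unlike the members. Txndc11 (1.09, adjusted p = 0.00920) and Xrcc5 (0.78, adjusted p = 0.0220) rose less, and Gspt1 (0.047), Rpl37a (0.29) and Zc3h7a (0.41) were not called.

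Likeness of pattern was measured as the root mean square difference between centred log2(FPKM + 1) profiles and the members' mean profile over the 8 libraries. The 10 nearest of 9668 eligible genes were 1700125H03Rik, H2afb1, Gm6760, 1700011F03Rik, Calr3, 4930549C01Rik, Gm5382, Fam187b, 4933411K16Rik and 1700042G07Rik, at 0.33 to 0.53, against a median of 1.93. The members themselves lay at 0.35 (Tnp2), 0.38 (Prm1), 0.42 (Tnp1), 0.61 (Prm2) and 0.78 (Prm3). H2afb1 was at 17.9 and 18.8 FPKM (WT LZ), 45.6 and 11.5 (Cnot4-null LZ), 7.98 and 6.58 (WT PD) and 345 and 124 (Cnot4-null PD). A pseudocount of 0.1 kept 6 of the 10, as did quantile normalization.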

How the data were processed

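RNA-seq of 8 libraries was analysed from the gene-level FPKM values that the authors deposited, aligned to mm9 with TopHat2 2.1.1 and assembled with Cufflinks 2.2.1 per the submitters' processing notes, with no scaling between libraries. The labels describe Trizol extraction and a TruSeq kit, the methods Smart-Seq2 on sorted cells; which applies was not settled. Groups and replicate numbers came from the labels.

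Genes above FPKM 1 in at least 1 library were tested with limma 3.58.1 in R 4.3.3 on log2(FPKM + 1), all 8 libraries in 1 fit of 4 groups with 4 residual degrees of freedom, eBayes with a trend, two-sided. Benjamini-Hochberg adjustment ran over all 15899 genes, and a gene was called at adjusted p under 0.05. The procedure was tested on simulated data. Tables and figures used Python 3.11.15 with numpy 2.4.6, pandas 2.3.3 and matplotlib 3.10.9. With duplicates, p-values measure only the spread between these libraries.

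Members and gene lists (spermatid, chromatin, regulator, meiotic, spermatogonial, somatic and neighbour genes) were chosen with earlier results of these data known. Named genes were the members and, per list, up to 8: the 4 of highest mean PD FPKM and the 2 of largest rise and of largest fall at PD, of which the text gives a selection. Outside that rule, Lhcgr, Hsd17b3, Fshr and Amh are named as list genes at 0 in some libraries, and Crem and Socs1 after their values were seen. Genes that passed the filter only through Cnot4-null PD are named for that reason, and genes like the members by distance. H1fnt, Csda and the like are the symbols in the tables; Cabs1, Meiob, Rhox5, Rmi2 and March4 matched no symbol and were not analysed here. Positions are from GENCODE on mm9, promoter sequences from RefSeq. Alternatives covered the filter, pseudocount, scaling, variance trend, libraries in the fit, a replicate block, the limit and each library left out; those for the list medians were added after the data were seen.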

Additional observations from a re-analysis of the deposited data

Results flagged for a closer look

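The genotype effect differed between LZ and PD for every member, by limma's test of the difference itself on the log2(FPKM + 1) scale. The difference, PD minus LZ, was 5.46 for Prm1, 4.60 for Prm2, 4.46 for Prm3, 5.16 for Tnp1 and 5.65 for Tnp2. Of all genes tested, 26.0% were called in that direction, and the calls of 4 members, all but Prm2, were lost when some libraries were left out. The Cnot4-null LZ duplicates, which differed by 2.98 times (Prm2) to 8.89 times (Tnp1 and Tnp2), enter each of these values.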

How the results depend on the processing

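At PD, the members' calls were kept in 93 of 95 recomputed values, with Tnp1 losing its call without WT PD replicate 2 and without Cnot4-null PD replicate 1. The members' median there was 4.22 after rescaling to the same median. At LZ, 10 of 95 values for single members turned direction, none of them called: Tnp2 was -0.0011 with a pseudocount of 0.1, -0.077 with quantile normalization and -0.046 after rescaling to the sum without the 100 highest genes. With 1 library left out at LZ, Prm1 ranged from -1.63 to 1.41, Prm2 from -0.24 to 1.34, Prm3 from -1.37 to 0.40, Tnp1 from -2.57 to 0.56 and Tnp2 from -1.56 to 1.57. Members called lower in WT from LZ to PD, 2 as reported, were 1 with no filter, 1 after rescaling to the same median, 1 at a limit of 0.01, 3 with a mean FPKM of at least 5 or quantile normalization (Tnp2 added, adjusted p = 0.0458 and 0.0308), 4 after rescaling to the sum without the 100 highest genes, 4 with only the libraries compared and 1 to 4 with a library left out. Their median was -1.74 after rescaling to the same median, -2.76 after rescaling to the sum without the 100 highest genes and -2.44 to -2.08 with a library left out, and Prm3 turned to 0.37 after rescaling to the same median. In Cnot4-null, members called higher at PD than LZ, 5 as reported, were 4 with no filter, a pseudocount of 0.1 or 2, equal medians or no variance trend (Prm1 lost in each), 1 with only the libraries compared, 1 at a limit of 0.01 and 1 to 5 with a library left out, where the median was 1.64 to 4.78. For the stage dependence they were 1 at a limit of 0.01 and 1 to 5 with a library left out, and the median ranged from 3.81 to 6.72.

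All genes called at PD, 8449 as reported, were 5219 with a mean FPKM of at least 5 (fewer genes tested), 4811 at a limit of 0.01 and 4057 to 9956 with a library left out. At LZ, 15 became 4 with only the libraries compared, 8 at a limit of 0.01 and 9 to 25 with a library left out. From LZ to PD in Cnot4-null, 7316 became 3955 with only the libraries compared, 4286 at a limit of 0.01 and 4644 to 8333 with a library left out. For the stage dependence, 4770 became 1709 at a limit of 0.01 and 1656 to 7929 with a library left out. A library left out leaves a lone sample in its group, assumed to vary like the other groups. Of the list medians at PD, histone variants and exchange factors turned to -0.45 by quantile normalization and -0.15 with equal medians, leptotene and zygotene genes to -0.36 and -0.63, and the Tnp1 neighbours to -0.059 after rescaling. The regulators went from -0.78 to -1.71 after rescaling and -0.33 without Cnot4-null PD replicate 2, and the pachytene genes from -1.43 to -2.34 and -0.86. With quantile normalization the Sertoli median went from 1.94 to 0.77, the endothelial from 1.76 to 0.84, the spermatogonial from 3.15 to 2.21, the late spermatid from 3.65 to 2.82, the round spermatid from 2.67 to 1.89 and that of the chromosome 16 neighbours from 0.95 to 0.38 (0.038 after rescaling). With a library left out the histone variant median ranged from 0.18 to 0.94, the leptotene and zygotene median from 0.092 to 0.41, the Sertoli median from 1.37 to 2.30, the late spermatid median from 3.13 to 3.97 and the round spermatid median from 2.197 to 3.08. The cause of these shifts was not tested.

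Whether same-numbered libraries of different groups share animals or a day is not stated, and they were treated as unpaired. Their deviations correlated at -0.07 to 0.19, the highest between Cnot4-null LZ and Cnot4-null PD, where all 5 members are higher in replicate 1 of both. Of all 15899 genes tested, 9506 (Cnot4-null LZ) and 8383 (Cnot4-null PD) were higher in replicate 1. With the replicate block, 4 members were called lower in WT from LZ to PD in place of 2, and 5 were called higher at PD, in Cnot4-null from LZ to PD and for the stage dependence, as without it. FPKM without counts gives no interval on single values.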
